A study of Mus musculus with 6 samples.

Results

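The genes described here are 9 genes of the intestinal tuft cell (Dclk1, Trpm5, Pou2f3, Gfi1b, Alox5ap, Ltc4s, Avil, Sh2d6 and Il25), followed through bulk RNA-seq libraries of sorted mouse Paneth cells. They were picked by name, matched to rows of the count table by Ensembl identifier, and are 9 of its 55414 genes. All 9 passed the filter on low counts that left 13026 genes to test. The tables hold 6 libraries, 3 from mice injected with PBS, the vehicle, and 3 from mice injected with tumour necrosis factor (TNF), an inflammatory cytokine, each collected 15 h after the injection. Every mouse, controls included, was a C57BL/6J animal without IFNAR1, through which cells sense type I interferons, so no library shows these genes with that receptor present. By the labels, each library came from the small intestine of a different mouse. The labels used here give no age, and the sources used here do not state the antibodies or gate of the sort.

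Tuft cells are rare chemosensory cells of the gut lining. They detect luminal compounds through G protein-coupled receptors, phospholipase C and the calcium-gated cation channel TRPM5, and they depend on the transcription factor POU2F3. Their interleukin-25 and cysteinyl leukotrienes act on innate lymphoid cells, whose interleukin-13 in turn raises tuft and goblet cell numbers. Paneth cells, which were the target of the sort, are a different secretory lineage, found at the base of the crypt and filled with lysozyme and α-defensins.

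The libraries held 12747484 to 17039511 counts over all genes. Lyz1, the Paneth cell lysozyme, alone reached 134153 to 226165 CPM (each gene's share of a library's counts, rescaled to a common total and by the trimmed mean of M-values, TMM). On the first principal component of all tested genes, TNF replicate 1 (-39.3) lay beside the 3 PBS libraries (-35.8 to -28.7) and away from TNF replicates 2 and 3 (63 and 73.1). The tests of the 9 genes are therefore given with and without TNF replicate 1. Genes with at least 1 count numbered 16483 in PBS replicate 1 and 16786 in TNF replicate 3, against 18180 to 18449 in the other 4 libraries. TNF replicate 3 carried 2380 counts of the X-inactivation transcript Xist together with counts of Eif2s3y, Kdm5d, Uty and Ddx3y, which lie on the Y chromosome. Among the other libraries, PBS replicate 3 carried these Y-linked genes and 128 counts of Xist. PBS replicates 1 and 2 and TNF replicates 1 and 2 carried 5145, 14311, 13846 and 7260 counts of Xist. None of them held more than 1 count of any of these Y-linked genes. Since Xist marks cells with more than 1 X chromosome, TNF replicate 3 could not be placed with either sex, and whether it came from a single mouse was not tested. Without it, none of the 9 genes passed 5% and their median log2 fold change was -0.52.

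Promoter windows, 250 bases before the start site on the RefSeq GRCm38.p6 assembly, were found for 6 of the 9 genes (Gfi1b, Dclk1, Sh2d6, Trpm5, Avil and Ltc4s, with 2 windows for Dclk1). These coordinates belong to another build than the gene positions given further on. The windows were searched on both strands for the octamer ATGCAAAT, the motif named for POU factors such as POU2F3, and for its first 7 bases, ATGCAAA, which any octamer also contains. None of the 7 windows held the octamer, which occurred in 526 of 32851 windows of all genes (1.60%). The shorter form occurred in 1355 windows (4.12%) and, among these genes, in that of Avil alone, with a pair of matches that start 115 and 15 bases before the start site. The windows of Avil, at chr10:127000459-127000708 on the plus strand, and of Trpm5, at chr7:143094643-143094892 on the minus strand, are shown 5′ to 3′ because Trpm5 and Avil were the most abundant of the 9 genes per length. Capitals mark the matches to ATGCAAA or its reverse complement, and the Trpm5 window holds none.
Avil: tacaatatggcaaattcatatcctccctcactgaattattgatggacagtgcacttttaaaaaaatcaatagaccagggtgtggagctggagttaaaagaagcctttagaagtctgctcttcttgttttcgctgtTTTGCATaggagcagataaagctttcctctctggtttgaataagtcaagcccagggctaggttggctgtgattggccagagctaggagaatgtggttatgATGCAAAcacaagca
Trpm5: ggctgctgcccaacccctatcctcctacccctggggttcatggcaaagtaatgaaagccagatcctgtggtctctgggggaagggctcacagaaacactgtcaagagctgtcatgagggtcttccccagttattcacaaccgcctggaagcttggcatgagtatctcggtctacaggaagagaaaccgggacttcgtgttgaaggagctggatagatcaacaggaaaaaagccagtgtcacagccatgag
A match to these letters is a description of the window and says nothing of binding in these cells.

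All 9 genes were counted in sorted Paneth cells, and their levels differed about as much between PBS mice as between any libraries of the series. Summed over the 9 genes, the level was 402 CPM in PBS replicate 1, 1086 in PBS replicate 2 and 1377 in PBS replicate 3, and 440.0, 902 and 486 CPM in TNF replicates 1, 2 and 3. The libraries thus fell into a higher trio (PBS replicates 2 and 3 and TNF replicate 2) and a lower trio (PBS replicate 1 and TNF replicates 1 and 3), each of which held mice of both groups. The highest PBS library was 3.43 times the lowest, and the highest TNF library 2.05 times the lowest. The mean was 955 ± 501 CPM in PBS and 609 ± 255 CPM in TNF (SD, n = 3 each), a difference smaller than the SD of the PBS mice. Without TNF replicate 1 the TNF mean was 694 CPM. In bulk RNA, fewer cells of a type and less RNA per cell cannot be told apart.

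The 9 genes together took 0.0384% of all counts in PBS replicate 1 (95% Wilson interval 0.0374 to 0.0395%), 0.120% in PBS replicate 2 (0.118 to 0.122%) and 0.147% in PBS replicate 3 (0.145 to 0.149%). In TNF replicates 1, 2 and 3 they took 0.0350% (0.0341 to 0.0360%), 0.108% (0.107 to 0.110%) and 0.0445% (0.0434 to 0.0456%). The intervals cover counting error only, and those of the higher trio do not reach those of the lower trio. The coefficient of variation of Dclk1 over the PBS mice was 56.7%, where counting alone would give 1.49%, and that of Trpm5 was 52.4%, against 1.44% from counting.

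**Figure D1:**
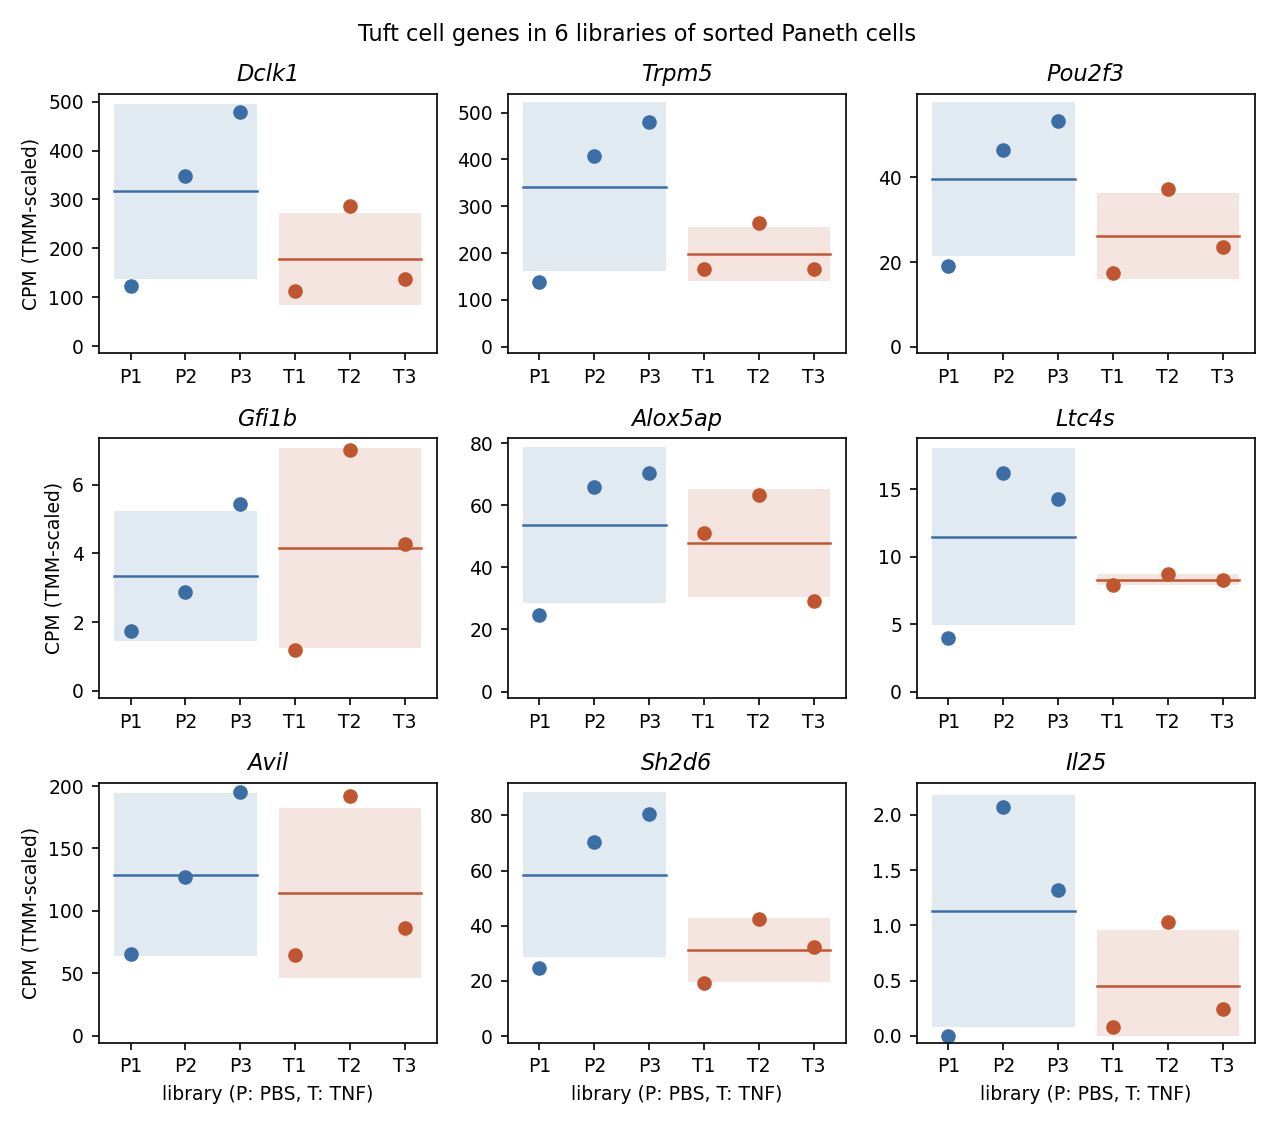
CPM (TMM-scaled, linear axis from 0) of each of the 9 tuft cell genes in the 6 libraries, with 1 point per library, lines at the group means and shading of 1 SD (n = 3). In 8 of the 9 genes the 3 highest points are PBS replicates 2 and 3 and TNF replicate 2, the exception being Gfi1b.

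The same 3 libraries were the highest in 8 of the 9 genes, a pattern seen in 5.14% of the 13026 tested genes. These 3 libraries were picked from the summed level of the same 9 genes, so this count is a description and no test. That holds too for the counts of PBS replicate 1 and TNF replicate 2 that follow. PBS replicate 1 was the lowest PBS library in 9 of 9 genes, where 39.1% of tested genes had it lowest. TNF replicate 2 was the highest TNF library in 9 of 9 genes, where 33.7% of tested genes had it highest. Across the 8 genes counted in every PBS library, the ratio of the highest to the lowest PBS library was 2.81 to 4.09, with a median of 3.20, against a median of 1.48 over all tested genes, of which 22.9% reached 2. Without PBS replicate 1 the ratio for the summed level fell to 1.27, so that the width of the PBS range rests on PBS replicate 1.

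Among the more abundant of the 9 genes, their relative shares varied less than the summed level. Dclk1 made up 25.9 to 34.7% of the counts summed over the 9 genes in a library, Trpm5 29.2 to 37.5% and Pou2f3 3.87 to 4.85%. Alox5ap stood out in TNF replicate 1, with 11.6% of the sum (95% Wilson interval 10.7 to 12.5%) against 5.11 to 7.02% in the other 5 libraries. Avil ranged from 11.7% in PBS replicate 2 (11.2 to 12.2%) to 21.3% in TNF replicate 2 (20.7 to 21.9%).

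Whether TNF changed the tuft genes was tested across all genes with edgeR's quasi-likelihood test and Benjamini-Hochberg adjustment. None of the 9 genes passed 5%, and none had an unadjusted p under 0.05. The background was also 0 of 13026 genes past 5% (0%), with 1596 (12.3%) at an unadjusted p under 0.05, and DESeq2 called 223 genes (1.71%) but none of the 9. Without TNF replicate 1, 1980 of 13660 genes passed (14.5%), again with none of the 9. The fitted log2 fold change, TNF minus PBS, was below 0 for 8 genes and above 0 for Gfi1b, with a median of -0.60 against -0.00 over all tested genes and -0.41 without TNF replicate 1. The PBS and TNF values overlapped in all 9 genes, whereas 16.9% of tested genes had groups that did not overlap.

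**Figure D2:**
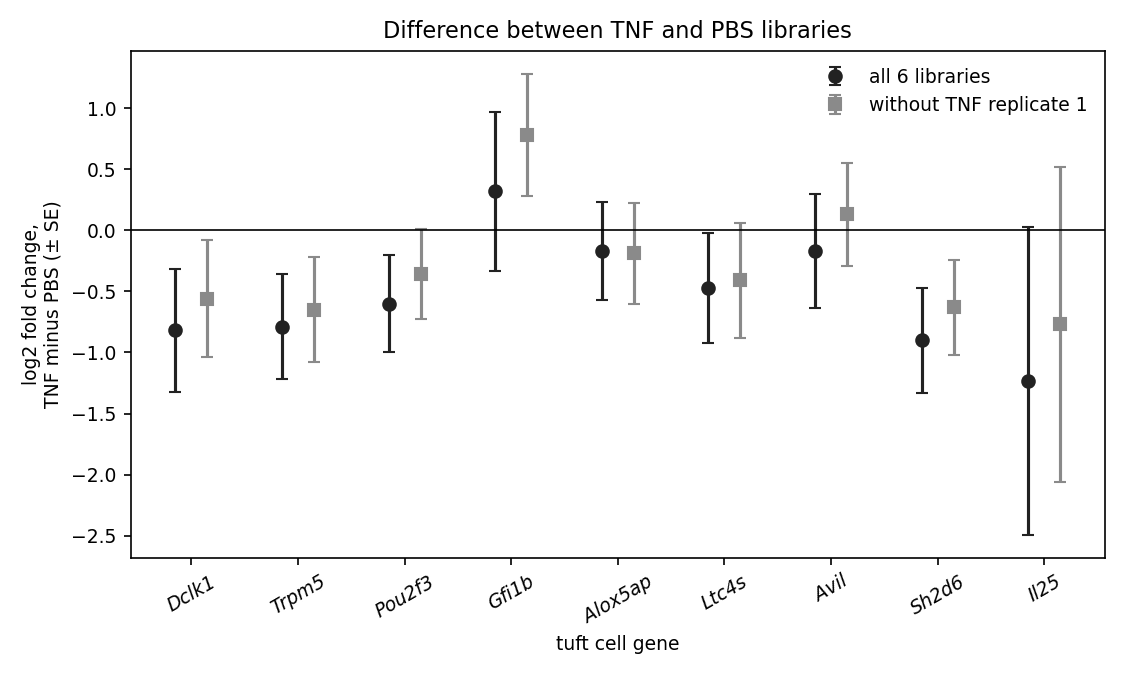
Fitted log2 fold change, TNF minus PBS, of the 9 tuft cell genes, with all 6 libraries (circles) and without TNF replicate 1 (squares), and error bars of 1 SE. The values run from -1.23 for Il25 to 0.32 for Gfi1b with all libraries, and no gene passed 5% in either fit.

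Trpm5 encodes the calcium-activated cation channel that depolarises tuft cells after receptor activation. It lies at chr7:142622890-142648379 on the minus strand of GRCm39 (ENSMUSG00000009246). It was measured at 139, 407 and 480 CPM in PBS replicates 1 to 3 and at 165, 264 and 165 CPM in TNF replicates 1 to 3. PBS replicate 1 was the lowest of all 6 libraries, and the other PBS libraries were the highest. The mean was 342 ± 179 CPM in PBS and 198 ± 57.0 CPM in TNF (SD, n = 3), a log2 fold change of -0.79 (SE 0.43) at an adjusted p of 0.482 in edgeR. Without TNF replicate 1 the log2 fold change was -0.65 (edgeR adjusted p = 0.363).

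Pou2f3 encodes the POU-domain factor on which the tuft lineage depends (chr9:43035228-43121666, minus strand, ENSMUSG00000032015). Its level was 19.0, 46.5 and 53.3 CPM in the PBS libraries and 17.5, 37.3 and 23.6 CPM in the TNF libraries. TNF replicate 1 and PBS replicate 1 were the lowest, and TNF replicate 2 lay between the lower and the higher PBS libraries. The log2 fold change was -0.60 (SE 0.40) at an adjusted p of 0.571 in edgeR, and -0.36 without TNF replicate 1 (edgeR adjusted p = 0.584).

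Gfi1b encodes a zinc-finger repressor used by tuft cells and also by megakaryocytes and red cell precursors (chr2:28499462-28511994, minus strand, ENSMUSG00000026815). It was counted at a low depth, with 24, 43 and 74 counts in the PBS libraries and 14, 143 and 53 counts in the TNF libraries, or 1.73, 2.87 and 5.44 CPM and 1.19, 7.00 and 4.27 CPM. TNF replicate 2 was the highest library, and Gfi1b was the only one of the 9 genes with a higher mean in TNF (4.15 ± 2.90 CPM) than in PBS (3.35 ± 1.90 CPM, SD, n = 3). The log2 fold change of 0.32 (SE 0.65) at an adjusted p of 0.868 in edgeR became 0.78 without TNF replicate 1 (edgeR adjusted p = 0.348) and -0.32 without TNF replicate 2. Of 9 megakaryocyte and red cell markers, 6 had no count in any library. The others, named after their values were seen, were Itga2b, Pf4 and Gp1bb. Itga2b had 0, 26 and 1 counts in the PBS libraries and 1, 5 and 13 in the TNF libraries. Pf4 had 7 counts in TNF replicate 2 only, and Gp1bb 1 count in PBS replicate 2 only. Their bearing on Gfi1b was not tested.

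Dclk1 encodes a microtubule-associated kinase that is widely used as a tuft cell marker (chr3:55149618-55446493, plus strand, ENSMUSG00000027797). It was measured at 123, 348 and 478 CPM in the PBS libraries and at 114, 287 and 137 CPM in the TNF libraries. TNF replicate 2 lay well above the other TNF libraries and below both higher PBS libraries. The mean was 316 ± 179 CPM in PBS and 179 ± 93.9 CPM in TNF (SD, n = 3), a log2 fold change of -0.82 (SE 0.50) at an adjusted p of 0.533 in edgeR. Without TNF replicate 1 it was -0.56 (edgeR adjusted p = 0.493).

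Avil encodes advillin, an actin-binding protein of the gelsolin family found in tuft cell microvilli (chr10:126836578-126856863, plus strand, ENSMUSG00000025432). Its level was 65.1, 127 and 195 CPM in the PBS libraries and 64.5, 192 and 86.1 CPM in the TNF libraries. TNF replicate 2 was level with PBS replicate 3, and TNF replicate 1 with PBS replicate 1. The log2 fold change of -0.17 (SE 0.47) at an adjusted p of 0.905 in edgeR turned to 0.13 without TNF replicate 1 (edgeR adjusted p = 0.877).

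Sh2d6 encodes an SH2-domain adaptor found in tuft cells (chr6:72490624-72498690, minus strand, ENSMUSG00000052631). Its level was 24.7, 70.4 and 80.6 CPM in the PBS libraries and 19.3, 42.3 and 32.4 CPM in the TNF libraries. All 3 TNF libraries lay below the higher PBS libraries, and PBS replicate 1 lay below TNF replicates 2 and 3. Its unadjusted p was the lowest of the 9 genes, at 0.0642 (log2 fold change -0.90, SE 0.43, edgeR adjusted p = 0.433). Without TNF replicate 1 it was -0.63 on the log2 scale (edgeR adjusted p = 0.332). Without the filter on low counts Sh2d6 passed 5% (log2 fold change -0.93, edgeR adjusted p = 0.0210), the only one of the 9 to do so, where 690 of 23434 genes (2.94%) passed.

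Alox5ap and Ltc4s belong to leukotriene synthesis. Alox5ap (chr5:149196003-149227762, plus strand, ENSMUSG00000060063) encodes the protein that presents arachidonic acid to 5-lipoxygenase, and Ltc4s (chr11:50127288-50129443, minus strand, ENSMUSG00000020377) encodes leukotriene C4 synthase. Alox5ap was measured at 24.7, 65.9 and 70.4 CPM in the PBS libraries and at 50.9, 63.3 and 29.0 CPM in the TNF libraries. TNF replicate 1 lay well above PBS replicate 1 and TNF replicate 3 for Alox5ap, though still below the higher trio. The group means were 53.7 ± 25.2 and 47.7 ± 17.4 CPM (SD, n = 3), a log2 fold change of -0.17 (SE 0.40) at an adjusted p of 0.892 in edgeR, and -0.19 without TNF replicate 1 (edgeR adjusted p = 0.807).

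Ltc4s was measured at 3.97, 16.2 and 14.3 CPM in the PBS libraries and at 7.90, 8.71 and 8.29 CPM in the TNF libraries. Its PBS libraries spread 4.09-fold, the widest ratio among the 8 genes with one, while its TNF libraries were nearly level (8.30 ± 0.402 CPM, SD, n = 3) and lay between the lowest PBS library and the others. The log2 fold change was -0.47 (SE 0.45) at an adjusted p of 0.711 in edgeR, and -0.41 without TNF replicate 1 (edgeR adjusted p = 0.615).

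Il25 encodes interleukin-25, the cytokine through which tuft cells activate innate lymphoid cells (chr14:55170152-55173294, plus strand, ENSMUSG00000040770). It was the least abundant of the 9 genes, with 0, 31 and 18 counts in the PBS libraries and 1, 21 and 3 counts in the TNF libraries. The 0 in PBS replicate 1 allows a level of up to 0.216 CPM. PBS replicates 2 and 3 and TNF replicate 2, the higher trio of the other genes, held the 3 highest values, at 2.07, 1.32 and 1.03 CPM. At this depth the log2 fold change of -1.23 had an SE of 1.26 (edgeR adjusted p = 0.730), so a difference between the groups was not detectable. Without TNF replicate 1 it was -0.77 (edgeR adjusted p = 0.750).

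Per length of merged exons, Trpm5 had the highest mean of the 9 genes in PBS, at 53.4 CPM per kb, and Avil the highest in TNF, at 33.6 against 30.9 for Trpm5. Avil followed in PBS at 37.9 CPM per kb, then Sh2d6 (34.7), Dclk1 (14.5), Alox5ap (13.9), Pou2f3 (12.4), Ltc4s (11.1), Gfi1b (1.83) and Il25 (1.06). Among neighbours in this order, the gaps from Sh2d6 to Dclk1 and from Ltc4s to Gfi1b exceeded the PBS SD of each gene of the pair (17.6 and 8.23, and 6.35 and 1.04 CPM per kb). The other neighbours lay within the larger SD of their pair, but this SD holds differences between mice that both genes share. Within every PBS library, Trpm5 lay above Avil (21.7 and 19.2, 63.6 and 37.3, and 75.0 and 57.3 CPM per kb) and Alox5ap above Pou2f3. The remaining close pairs changed order between PBS libraries. Exons of Trpm5, Avil, Ltc4s and Alox5ap overlap opposite-strand genes that were themselves counted, namely Tssc4, Tsfm, Gm26542 and Gm19719. Gm19719 had 1 count in PBS replicate 3 and 1 in TNF replicate 1. Opposite-strand genes without a row of counts overlap exons of Gfi1b, of Dclk1 (1367 bases with Gm65797) and of Il25 (734 bases, of 1.06 kb). The sources used here do not state whether counting used the strand, so reads from the shared stretches cannot be assigned.

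A wider set of 49 genes linked to tuft cells, in 5 lists, covered the chemosensory cascade, eicosanoid synthesis, the interleukin-25 and interleukin-13 circuit, other regulators, and kinases with further markers. Of these, 45 were tested, and their median log2 fold change was -0.36, with 39 below 0, 6 above 0 and none past 5% in edgeR's test. An unadjusted p under 0.05 was reached by 6 of the 45, all lower in TNF. In either direction 12.3% of all tested genes reached it, with 521 of 13026 lower in TNF and 1075 higher. The spread among PBS mice recurred here. The ratio of the highest to the lowest PBS library was 2 or more in 36 of the 45, against 22.9% of all tested genes, and the same 3 libraries were highest in 29 (64.4%, against 5.14% of all tested genes).

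Kctd12, encoding an auxiliary subunit of GABA-B receptors, had the same higher and lower trios as the 9 genes, at 261, 572 and 904 CPM after PBS and 217, 467 and 247 CPM after TNF. The kinase and marker list as a whole had 17 of 19 genes with a PBS ratio of 2 or more. The SH2-domain gene Sh2d7 was measured at 53.9, 130.0 and 197 CPM after PBS and 45.3, 134 and 67.6 CPM after TNF. Of the 5 further regulators, none was at an unadjusted p under 0.05, and Spib, encoding an ETS factor, stood at 33.6, 76.6 and 97.5 CPM after PBS and 32.1, 86.7 and 46.5 CPM after TNF. The homeobox genes Hmx2 (4.08 to 16.5 CPM over the 6 libraries) and Hmx3 (4.76 to 18.4 CPM) had the same higher and lower trios. With Spib, that made 3 of the 5 regulators. Pou2af2 and Pou2af3, named after their values were seen, did not. Pou2af2 stood at 4.26, 9.61 and 13.9 CPM after PBS and 6.12, 5.09 and 2.17 CPM after TNF. Pou2af3 stood at 7.21, 7.28 and 6.83 CPM after PBS and 8.92, 4.40 and 2.09 CPM after TNF.

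In the chemosensory list, 8 of 10 tested genes had a fold change below 0. Plcg2, encoding phospholipase C gamma 2, ranged from 41.0 to 138 CPM, and Rgs13, a regulator of G protein signalling, from 52.2 to 186 CPM, both highest in PBS replicate 3. In the eicosanoid list, 5 of 6 tested genes were below 0. Alox5, the 5-lipoxygenase that works with Alox5ap, was measured at 23.4, 51.4 and 75.1 CPM after PBS and 30.9, 68.2 and 34.9 CPM after TNF (-0.16 on the log2 scale, SE 0.43). Ptgs1, encoding cyclooxygenase 1, stood at 11.3, 51.3 and 52.7 CPM after PBS and 16.6, 40.7 and 18.4 CPM after TNF, and Pla2g4a, a phospholipase that releases arachidonic acid, ranged from 20.3 to 49.9 CPM.

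The circuit list held fewer such genes, with a PBS ratio of 2 or more in 1 of 5 tested genes, Il17rb (6.39), an interleukin-25 receptor chain named after its values were seen. The other receptors and the signalling factor of the list are made by many epithelial cells. Whether this bears on their spread here was not tested. Il4ra, the shared receptor chain of interleukin-4 and interleukin-13, held at 33.1 to 47.9 CPM over the 6 libraries, and Stat6, which acts downstream of it, at 30.6 to 58.0 CPM. Il13ra1, its partner chain, ranged from 146 to 280.0 CPM with the higher trio of the 9 genes highest and a PBS ratio of 1.92. Itpr3, the inositol trisphosphate receptor of the chemosensory cascade, likewise varied little within PBS, at 60.7 to 68.7 CPM, and lay at 68.8 to 90.0 CPM with TNF, just clear of the PBS range, as 9.07% of all tested genes did in that direction (fitted difference 0.29 on the log2 scale, SE 0.20, edgeR adjusted p = 0.578).

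Nrep and Plcb2 passed 5% once TNF replicate 1 was left out. Nrep, encoding a small neuronal regeneration-related protein, was measured at 23.2, 49.3 and 69.6 CPM after PBS and at 15.7, 7.24 and 6.52 CPM after TNF. All 3 TNF libraries lay below all PBS libraries, and TNF replicate 2, high for the 9 genes, was among the lowest for Nrep. Its log2 fold change was -2.27 (SE 0.46) at an adjusted p of 0.270 in edgeR with all libraries and -2.76 without TNF replicate 1 (edgeR adjusted p = 0.00123), where 5.40% of all tested genes passed in that direction. Without TNF replicate 3 it was -2.05 (edgeR adjusted p = 0.897).

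Plcb2, encoding the phospholipase C that acts between taste-type receptors and TRPM5, was measured at 27.7, 60.7 and 89.8 CPM after PBS and at 21.8, 23.3 and 15.8 CPM after TNF. Again the groups did not overlap, as in 7.82% of all tested genes in that direction. Its log2 fold change was -1.55 (SE 0.38) at an adjusted p of 0.270 in edgeR, and -1.58 without TNF replicate 1 (edgeR adjusted p = 0.0242). Without TNF replicate 3 it was -1.39 (edgeR adjusted p = 0.897). Nrep and Plcb2 were the only 2 of the 45 wider genes past 5% without TNF replicate 1. DESeq2 with all libraries also called both, at log2 fold changes of -2.28 for Nrep (DESeq2 adjusted p = 2.66e-04) and -1.56 for Plcb2 (DESeq2 adjusted p = 0.0107).

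With the mean log2 CPM of the 9 genes as a further term in the edgeR fit, an alternative chosen after seeing the data, the log2 fold change was -1.99 (SE 0.51, unadjusted p = 0.00402, edgeR adjusted p = 0.237) for Nrep and -1.12 (SE 0.29, unadjusted p = 0.00456, edgeR adjusted p = 0.237) for Plcb2. No gene of the table passed 5% in that fit (0%), and 13.2% had an unadjusted p under 0.05. The other 4 wider genes at an unadjusted p under 0.05, named after their values were seen, were Gnat3 (-1.71), St18 (-1.04), Il17rb (-1.64) and Lta4h (-0.52, log2 fold changes in edgeR's fit of all libraries), with unadjusted p of 0.0402, 0.0356, 0.0289 and 0.0457.

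**Figure D3:**
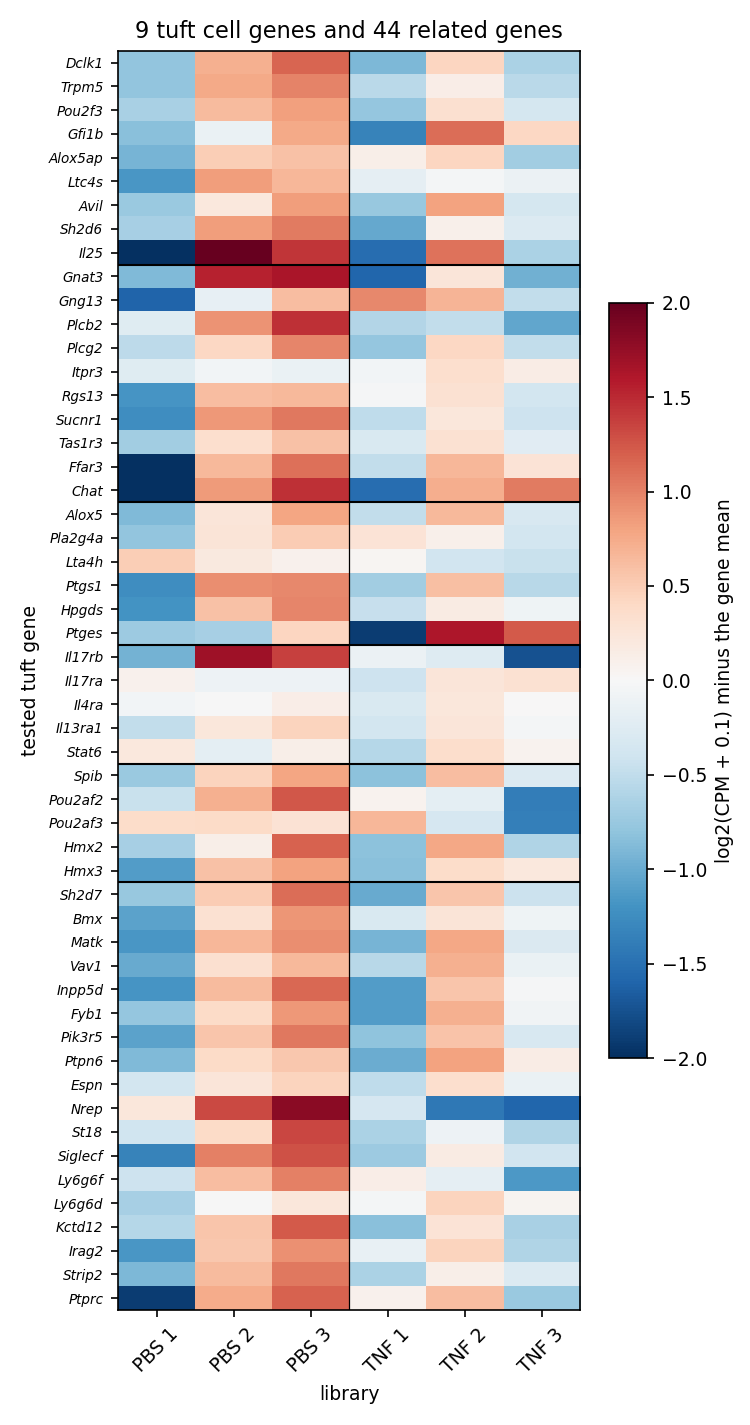
Log2(CPM + 0.1) of the 9 tuft cell genes and 44 of the 45 tested genes of the wider lists in the 6 libraries, each gene centred on its own mean (red above, blue below, scale from -2 to 2), with lines between lists. Red columns at PBS replicates 2 and 3 and TNF replicate 2 run through most genes, and Nrep and Plcb2 are blue in all 3 TNF libraries.

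Likeness to the 9 genes was measured for every tested gene by Pearson's r with their mean log2 CPM over the 6 libraries, as a description, since all points share the same libraries and scaling and the libraries form a higher and a lower trio. Outside the 9 genes, the most alike included Cacna2d2 (r = 0.998), Pik3r5 (0.993), Eppk1 (0.991), Ptgs1 (0.990), Stk38, Gm47166 and Matk (each 0.988). Of these, Pik3r5, Ptgs1 and Matk belong to the wider tuft lists. Among the others, Cacna2d2, an auxiliary calcium channel subunit, ranged from 3.25 to 10.1 CPM, and Eppk1, encoding the cytoskeletal linker epiplakin, from 138 to 516 CPM. Of the 45 wider genes, 24 had r over 0.9 (53.3%, against 1.45% of all tested genes).

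None of the summed Paneth, goblet, stem, enterocyte and enteroendocrine marker lists had the 3 highest libraries of the tuft genes. The 10 Paneth markers summed to 274515, 224705 and 264660 CPM after PBS and 341602, 177539 and 279893 CPM after TNF, so that the highest PBS library was 1.22 times the lowest. Most of this sum was Lyz1. Singly, 2 of the 10 had a PBS ratio of 2 or more, both highest in PBS replicate 1. They were Itln1 (56451, 33233 and 27666 CPM in PBS) and Habp2 (595, 296 and 257), named after their values were seen. The sum of the 8 goblet markers had a PBS ratio of 1.10, that of the 6 stem markers 1.23 and that of the 8 enterocyte markers 1.17. The goblet sum was mostly Spink4 and the stem sum mostly Olfm4, and 1 gene of each of these lists had a PBS ratio of 2 or more. Within the enterocyte sum, carried mostly by Fabp2, 4 of the 8 genes had a PBS ratio of 2 or more with PBS replicate 1 lowest. They include Apoa4 (0.505, 7.07 and 9.11 CPM), Lct (0.433, 3.27 and 4.33) and Fabp1 (0.577, 15.6 and 8.67 CPM in PBS), named after their values were seen. Among the TNF libraries these sums spread more. The ratio of the highest to the lowest was 1.99 for goblet, 5.89 for stem (4692, 901 and 797 CPM) and 3.78 for enterocyte markers, with TNF replicate 1 the highest in each, and their part in the differences of Nrep and Plcb2 was not tested. The 10 enteroendocrine markers spread as widely as the tuft genes, at 54.0, 75.6 and 191 CPM after PBS and 99.1, 47.5 and 144 CPM after TNF, but were lowest in TNF replicate 2, where the tuft genes were high.

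The 14 leukocyte markers summed to 22.3, 42.6 and 54.7 CPM after PBS and 45.4, 39.3 and 37.0 CPM after TNF. Cd3d and Cd3g, which define T cells, had no count in any library, and 8 of the 14 never passed 5 counts in a library. Cd3e and S100a9 were named after their values were seen. Cd3e had 4 counts in PBS replicate 1 and 2 in TNF replicate 1. S100a9 had 0 counts in the PBS libraries and 0, 26 and 13 in the TNF libraries. It was not tested with all libraries. Without TNF replicate 1 its log2 fold change was 7.15 (edgeR adjusted p = 0.0253), where 14.5% of tested genes passed. Most of the leukocyte sum came from Ptprc and from Lyz2, whose reads may be shared with its paralog Lyz1. Ptprc (3.90, 25.0 and 33.9 CPM in PBS, and 15.8, 22.7 and 8.86 in TNF) is a leukocyte gene that also stands on the wider tuft list. It was highest in the 3 libraries where the tuft genes were highest. Lyz2 (17.2, 16.0 and 19.0 CPM in PBS, and 27.6, 13.1 and 25.4 in TNF) was not, and neither was the sum that holds it. Of 9 mast cell markers, another cell type that makes leukotrienes, 6 had no count in any library. The part of the enteroendocrine, enterocyte or leukocyte content, the sex of the mouse, the number of genes detected or TNF replicate 1 in the spread of the tuft genes was not tested.

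**Figure D4:**
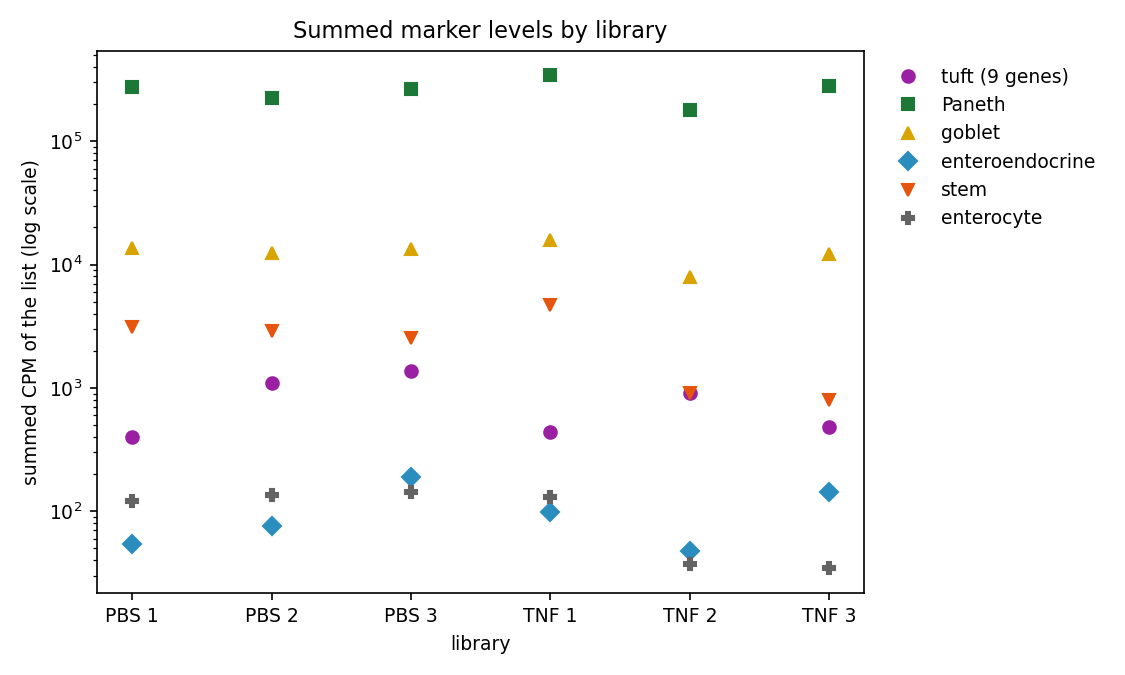
Summed CPM of each cell-type marker list in the 6 libraries, on a log axis. The tuft genes run from 402 to 1377 CPM in PBS, while the sums of the Paneth, goblet, stem and enterocyte lists stay within a 1.23-fold range there.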

How the data were processed

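RNA-seq of Paneth cells sorted from 3 PBS and 3 TNF mice was taken from 1 table of raw read counts per Ensembl gene, deposited by the authors without normalization. Per the labels, total RNA was sequenced, and the submitters' processing notes name FastQC, Trimmomatic 0.39, STAR 2.7.10a, DESeq2 and the mm39 build. The sources used here do not state the counter, its annotation or its handling of strand and multimapped reads. Reads shared by paralogs or overlapping genes may therefore be split or lost.

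From these counts, genes were kept by edgeR's filter (minimum count 10, minimum total 15), scaled by TMM and tested with the quasi-likelihood test, with group as the only term and Benjamini-Hochberg adjustment over all genes (R 4.3.3, edgeR 4.0.16). The test was tried first on simulated counts. DESeq2 1.42.0, limma 3.58.1 (voom), other scalings and filters, a replicate block and leaving out each library were alternatives. Log2 CPM used a prior count of 2. Symbols and positions came from the GENCODE annotation of GRCm39, with 54749 of 55414 identifiers matched and 0.0193% of counts in the rest. No pair of libraries within a group agreed within sampling noise, and a count of 0 was given an upper limit of 3 counts.

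The genes and lists were chosen with earlier results of these data known. All 9 tuft genes were named. From the wider lists, the genes past 5% with all libraries or without TNF replicate 1 and the 3 most abundant of each list were named, with the 8 genes most alike to the 9, and 2 genes of the lists are not reported here by name. Lyz1 and the most abundant or undetected markers of the other cell types were named too.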

Additional observations from a re-analysis of the deposited data

How the results depend on the processing

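With all 6 libraries, 0 of 13026 genes passed 5% in edgeR, against 690 without the filter on low counts and 223 with DESeq2. Leaving out 1 library gave 0 to 1980, with 1980 coming from leaving out TNF replicate 1. The cause was not tested. Of the 9 tuft genes, 1 (Sh2d6) passed without the filter and 0 under each other alternative. DESeq2 gave Il25 no adjusted p. Their median log2 fold change of -0.60 stayed below 0 throughout, from -0.98 without TNF replicate 2 to -0.26 with limma-voom. The PBS ratio of the summed level was 1.27 to 3.43 when 1 PBS library was left out, and 3.38 to 3.83 under other scalings.

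The replicate numbers did not pair the libraries (same-number correlations of deviations -0.0128, -0.0748 and 0.0311). With the replicate block, 0 genes passed, the median of the 9 genes was -0.54, and no call changed.

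With 1 library left out, other log2 fold changes kept their sign but moved by over 1.5 times at an end of their range, none of them called. Dclk1 ran from -1.36 without TNF replicate 2 to -0.44 without PBS replicate 3, and Pou2f3 from -0.98 to -0.36 (without TNF replicates 2 and 1). Trpm5 ran from -1.16 without PBS replicate 1 to -0.51 without PBS replicate 3, Ltc4s from -0.87 to -0.14 (without PBS replicates 1 and 2) and Il25 from -2.75 without TNF replicate 2 to -0.48 without PBS replicate 2. Among the named wider genes, Plcg2 ran from -1.07 to -0.26, Ptgs1 from -1.17 to -0.34 and Sh2d7 from -1.20 to -0.20. Kctd12 ran from -1.35 to -0.47, Spib from -0.85 to -0.03 and Rgs13 from -0.64 to -0.02. Hmx3 ran from -0.70 to -0.00 and Itpr3 from 0.16 to 0.40.

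Values that changed sign, none of them called, were these log2 fold changes. With 1 library left out, Gfi1b ran from -0.32 to 0.81, Alox5ap from -0.51 to 0.10 (also 0.00 and 0.03) and Avil from -0.81 to 0.20 (also 0.13 and 0.00). Alox5 ran from -0.63 to 0.21 (also 0.07), Pla2g4a from -0.35 to 0.16 (also 0.03 and 0.11), Il4ra from -0.20 to 0.11, Il13ra1 from -0.37 to 0.02 (also 0.01), Stat6 from -0.31 to 0.18 (also 0.03) and Hmx2 from -1.16 to 0.16. Pla2g4a was 0.01 with the block and 0.02 with limma-voom. With the tuft level as a term, chosen after seeing the data, Rgs13 was 0.31, Alox5 0.26, Pla2g4a 0.25, Ptgs1 0.08, Il4ra 0.02, Il13ra1 0.09, Spib 0.06 and Hmx3 0.27. Of the named genes' other values, 354 kept direction and side of the threshold and 7 (Nrep, Plcb2 and Sh2d6) passed it.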

Other observations

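A few genes of the lists were too low, or too uneven, for the comparisons above, and were chosen after their values were seen. Ptgs2, the inducible cyclooxygenase, stood at 0.289, 1.87 and 2.79 CPM in PBS and at 0, 0.0489 and 0.242 CPM in TNF. It was not tested with all libraries, and without TNF replicate 1 its log2 fold change was -3.54 (edgeR adjusted p = 0.0932). Chat, which makes the acetylcholine that tuft cells release, had the widest PBS range of the wider genes, at 0.577, 7.01 and 10.8 CPM, and 1.27, 6.41 and 7.97 CPM in TNF. Hdc, the histidine decarboxylase of mast cells and of some tuft and enteroendocrine cells, had no count in the PBS libraries and 4, 11 and 13 counts in the TNF libraries.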
